A study of Mus musculus with 32 samples.

Results

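Markers of blood cells other than B cells were followed through the B cell samples of a mouse lymphoma study. The 34 genes mark neutrophils (7 genes), red cell precursors (8), macrophages (9), natural killer (NK) cells (5) and T cells (5). They were taken by symbol from the gene names of the array, each by its brightest probe over the 24 arrays that share a reference pool, out of 35019 genes with a name there. All 34 were found, one of them (Adgre1) under its older name Emr1.

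The study compared lymphoma cell lines of ATM-deficient mice with normal B cells on 32 Agilent arrays with 2 colours. On 24 arrays the sample was labelled with Cy5 and a common RNA pool with Cy3. Those arrays held 9 lymphoma lines of the strain ATMKO.CD3epsilonKO (12 arrays), germinal centre (GC) B cells of ATMWT mice immunised with SRBC, sheep red blood cells (3 arrays), and splenic B cells (9 arrays). The other 8 arrays compared PCI-32765 (ibrutinib, an inhibitor of the B cell kinase BTK, 100 nM for 1, 3, 6 or 24 h) in Cy5 with its vehicle DMSO in Cy3, in the ATMKO.CD3epsilonKO lines 178119 and 28545. The splenic B cells came from ATMKO.CD3epsilonKO mice (untreated, 3 arrays; goat anti-mouse IgM at 15 ug/ml for 3 h, 1 array, for 6 h, 2 arrays, and for 24 h, 1 array) and from ATMWT.CD3epsilonKO mice (untreated and 6 h, 1 array each). All splenic cells and all lymphoma lines thus lack CD3 epsilon, a subunit of the T cell receptor, while the GC cells carry no such deletion in their label. Untreated cells are called resting below. How the B cells were purified, the age of the mice and the number of mice per sample are not given in the sources used here. The treatment field of the 6 h samples gives 3 h, while their names and text give 6 h, which is used here.

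Spleen is the organ in which mice filter blood, and it also makes red cells and granulocytes. A B cell preparation from spleen can therefore carry nucleated red cell precursors, neutrophils with their very abundant granule and S100 proteins, the macrophages of the red pulp and marginal zone, and lymphocytes with a cytotoxic or T cell programme. Anti-IgM crosslinks the B cell receptor and drives resting B cells into growth, whereas the marker genes listed here belong to other lineages.

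Values are log2 ratios of sample to pool after loess normalisation, so 0 is the level of the pool and positive values lie above it. The pool held RNA of splenic B cells, tumours and GC cells together. Where a pair of values is given for rest or for 6 h, the ATMWT sample comes first and the ATMKO sample follows; 3 h and 24 h values are of ATMKO cells. Ratios of different genes were not set against each other, since each depends on how much of that RNA is in the pool. In RNA from a mixed sample, fewer cells of a type and less RNA per cell cannot be told apart.

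In the sample channel 55.2% to 60.7% of spots were well above background on splenic arrays and 49.9% to 55.5% on lymphoma arrays other than the first array of line 1039, which reached 21.9%. The first GC array reached 29.4%, against 53.5% and 54.1% on the others, and correlated with those at 0.0641 and 0.066 across probes, while they correlated with each other at 0.958. GC ratios below are therefore those of the other 2 arrays, while GC detection counts and fold bounds use all 3 arrays. Lymphoma results are given with and without the faint array where it moved them. The lowest correlation among the 3 resting ATMKO arrays, which lie on 2 slides, was 0.638. The lowest correlation between any 2 pool arrays was -0.46, between a resting ATMKO and a lymphoma array, with the dyes as the labels state them. The 11 B cell markers had a median of 0.56 on the resting ATMWT array and of 0.39 to 0.45 on the resting ATMKO arrays. Among them Cd79a, a B cell receptor subunit, read 0.79 in ATMWT and 0.94 in ATMKO cells. The lowest was Cd22, at -1.65 and -1.47. As the pool holds B cell RNA too, these ratios are no measure of B cell identity.

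Cd3e, the gene deleted in these strains, had signal above background in every splenic and lymphoma sample. Its log2 ratio was 0.98 in resting ATMWT cells and 0.79 ± 0.18 (SD of 3 arrays of 1 sample) in resting ATMKO cells. After anti-IgM it was 0.48 at 3 h, -0.14 (ATMWT) and -0.26 (ATMKO) at 6 h and -0.38 at 24 h, and GC cells, with an intact gene, read -1.89. Resting cells were thus above GC cells, and all stimulated samples were below the resting ones. The probe (mm9 chr9:44806828-44806887, minus strand) starts at base 1374 of the transcript. The deleted part of the gene is not given in the sources used here, so the probe checks no label.

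**Figure D1:**
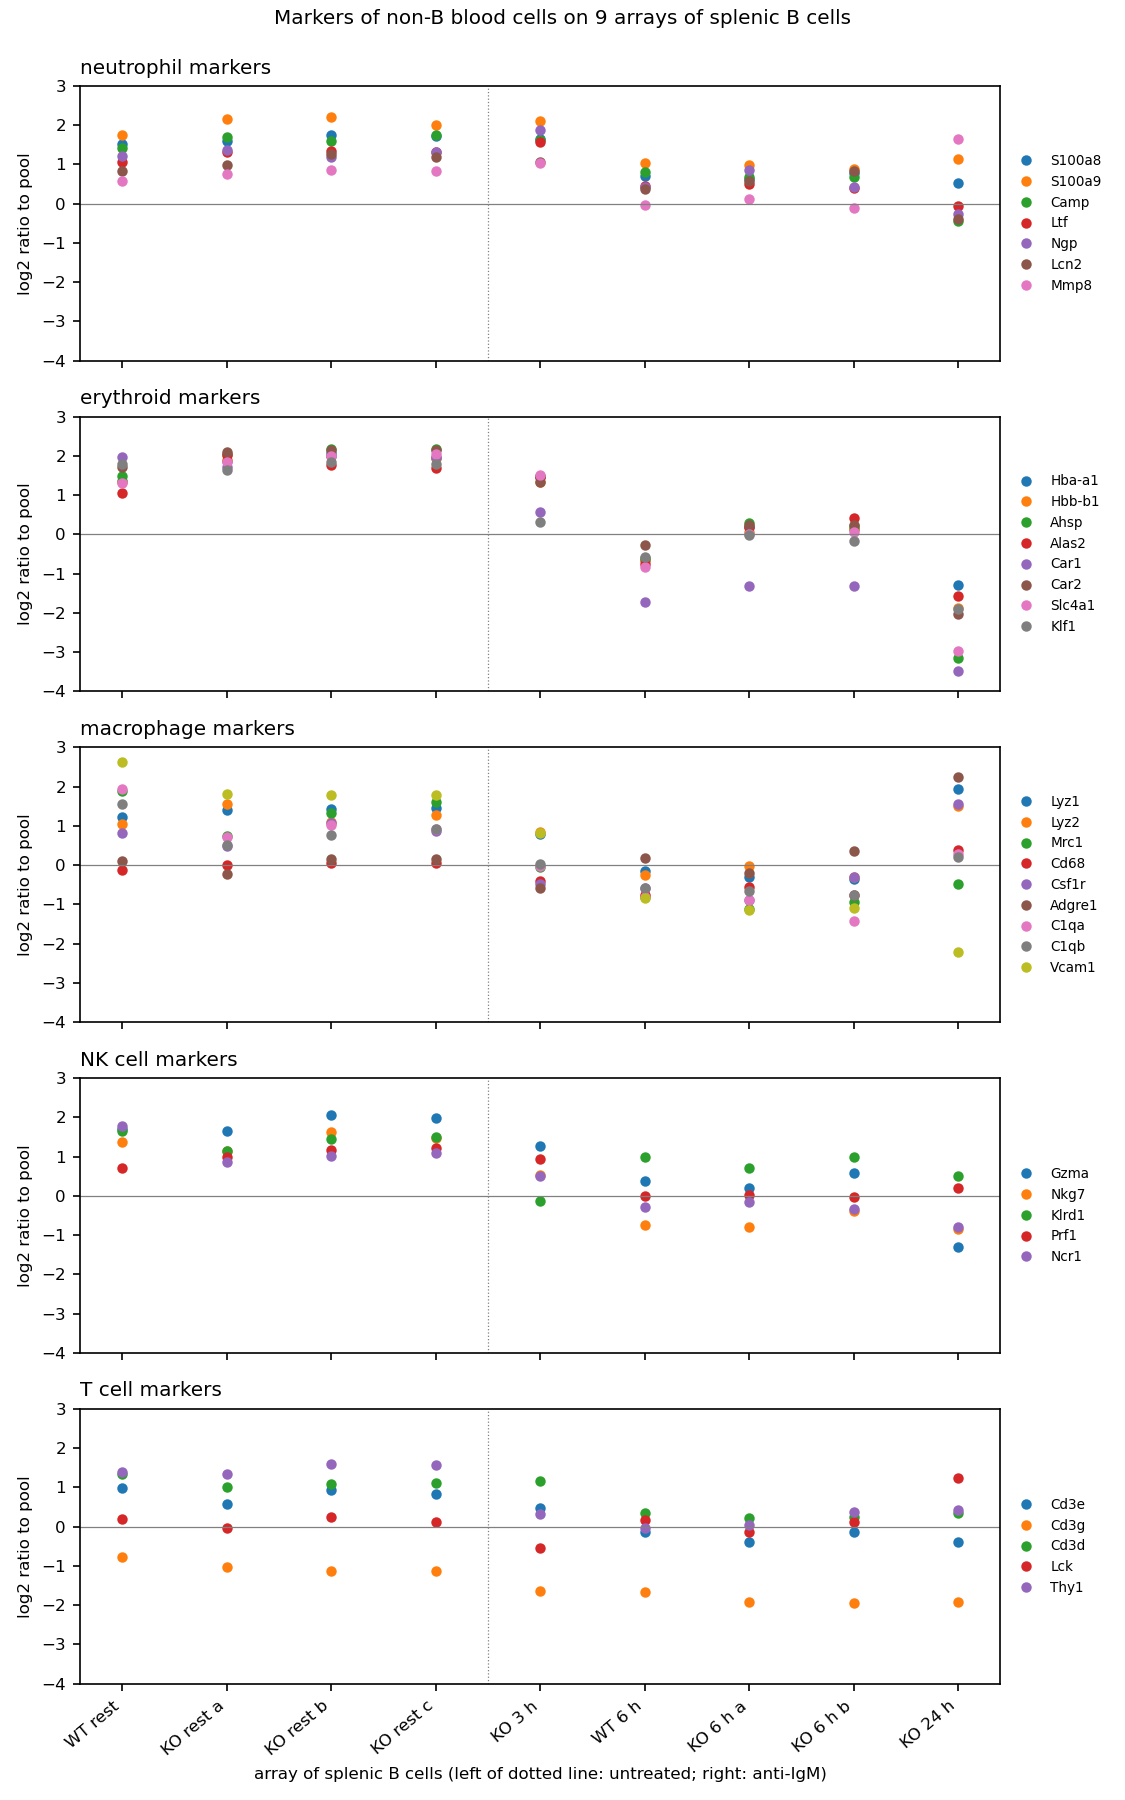
Log2 ratio to the pool (y axis) of the 34 markers on each of the 9 arrays of splenic B cells (x axis; KO, ATMKO.CD3epsilonKO; WT, ATMWT.CD3epsilonKO; rest, untreated; a, b and c, arrays of 1 sample), with 1 point per gene. Erythroid markers lie between 1.05 and 2.18 on all resting arrays and between -3.47 and -1.30 at 24 h, whereas macrophage markers spread from -2.21 to 2.24 at 24 h.

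In resting cells 32 of the 34 markers were above the pool in both genotypes. The share of all genes above the pool was not worked out. Cd68 lay at the pool level (-0.11 in ATMWT and 0.04 in ATMKO cells) and Cd3g below it (-0.77 and -1.09). The neutrophil genes read 0.58 to 1.76 in ATMWT and 0.82 to 2.13 in ATMKO cells, and all 7 were higher in ATMKO cells, with a median difference of 0.24. Of the 8 erythroid genes 6 were higher in ATMKO cells (median difference 0.61), among them Alas2 (0.77) and Slc4a1 (0.67), while Car1 (-0.07) and Klf1 (-0.03) were level. Macrophage genes went the other way in part: C1qa (-1.06), Vcam1 (-0.85), C1qb (-0.81) and Mrc1 (-0.66) were lower in ATMKO cells, whereas Lyz1, Lyz2, Cd68, Csf1r and Adgre1 differed by 0.24 or less. Among NK genes Ncr1 was lower in ATMKO cells by 0.78 and Prf1 higher by 0.43. With 1 sample per genotype these differences have no replicate check. C1qa was the single member below -1, a level that 0.365% of 22194 genes passed, and no member was above 1, which 1.75% passed. The genotypes also lay on different slides, so genotype and slide cannot be told apart here.

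At 6 h of anti-IgM, the time with a sample of each genotype, 32 of the 34 markers fell, where 16.5% of 22377 genes fell and 11.9% rose, 28.5% in all (limma with genotype as a term, 4 samples, Benjamini-Hochberg adjusted p below 0.05 over all genes, 1 residual degree of freedom). Adgre1 and Lck did not pass the test. The median difference of the 34 was -1.38, beside -0.05 over all genes. By class the median was -0.75 for neutrophil (7 of 7 fell), -1.96 for erythroid (8 of 8), -1.57 for macrophage (8 of 9), -1.42 for NK (5 of 5) and -0.91 for T cell genes (4 of 5). The B cell markers fell as well, 11 of 11 tested, with a median of -1.11, so a fall at 6 h was not particular to markers of other cells. On the slide with the first ATMKO arrays 33 of 34 members were below rest at 6 h (median -1.24). On the slide with the later ones it was likewise 33 of 34 (median -1.29). With all ATMKO arrays averaged, 12598 of 22194 genes were below rest at 6 h. Nothing in the sources says whether samples of 1 genotype came from separate mice, so the p-values cover no spread between mice. The 1 residual degree of freedom is how far the genotypes differed in their change at 6 h. The SEs and p-values at 6 h thus rest largely on the variance that limma shares over all genes. They say little about the spread of a single gene. When arrays were centred on their median without loess, 23 of the 34 fell and the split over all genes turned from 3693 lower and 2674 higher to 1873 lower and 5365 higher. That scaling moved the median of all genes to 0.13. With the deposited log ratios 21 fell.

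With the 3 h, 6 h and 24 h samples as 1 group against rest, no gene was called by limma (0% of 22194 genes, 6 samples, 3 residual degrees of freedom). At an unadjusted p under 0.05 there were 1677 genes, 12 of them members, and 32 of the 34 members were below 0, with a median of -0.95 beside -0.04 over all genes. On simulated data, where a changed gene moved alike in all stimulated samples, this fit recovered 0 of 100 genes changed by 1 on the log2 scale and 75 of 100 changed by 3. The 3 times differed widely for several classes, as described class by class below. With the spread estimated from all 16 pool samples instead, an alternative added after the data were seen, 6 members and 143 genes in all were called. With slide as a block and each array on its own, which takes technical repeats as samples, 22 members were called lower, and 3332 genes in either direction.

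**Figure D2:**
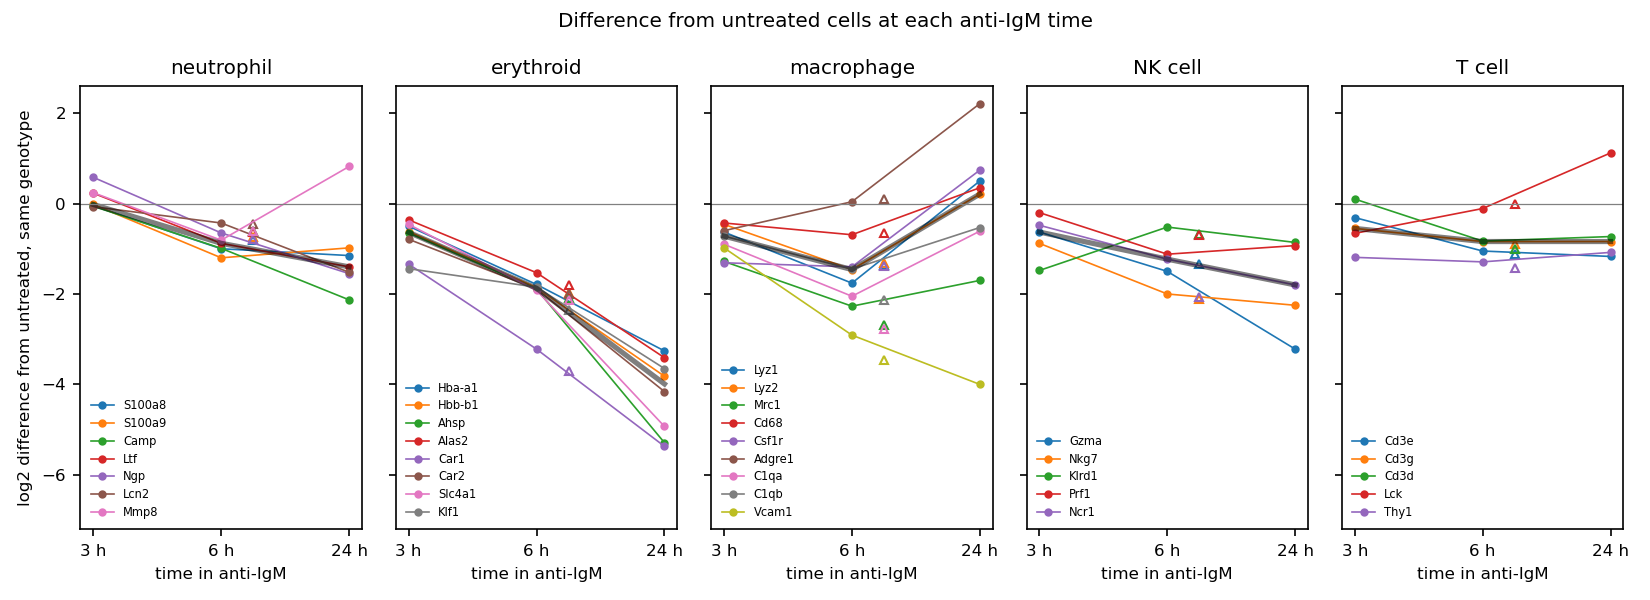
Log2 difference of each marker from untreated cells of the same genotype (y axis) against time in anti-IgM (x axis), with ATMKO samples as joined points, ATMWT at 6 h as open triangles and the class median as a thick grey line. The erythroid median goes from -0.63 over -1.87 to -3.99, while the macrophage median goes from -0.72 over -1.46 to 0.21.

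Red cell precursor genes had the lowest median of the member classes in ATMKO cells at 6 h (-1.87) and at 24 h (-3.99). Hba-a1 encodes an alpha chain of haemoglobin and Hbb-b1 a beta chain, Ahsp is the chaperone of free alpha globin, Alas2 starts haem synthesis, Car1 and Car2 are carbonic anhydrases, Slc4a1 is the band 3 anion exchanger and Klf1 an erythroid transcription factor. The probes of an alpha globin, its chaperone and the member with the largest fall are shown, 5′ to 3′ and in lower case, since no base is singled out. Strand and mm9 position are those of the array files, which list Ahsp as unmapped.
Hba-a1 (A_55_P1962303, chr11:32183955-32184014, plus strand): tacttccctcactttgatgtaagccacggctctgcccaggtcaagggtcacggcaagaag
Ahsp (A_52_P534583): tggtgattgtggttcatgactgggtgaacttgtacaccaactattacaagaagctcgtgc
Car1 (A_52_P317653, chr3:14767486-14767545, minus strand): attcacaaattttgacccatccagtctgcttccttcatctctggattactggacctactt

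Car1 read 1.97 in resting ATMWT and 1.90 ± 0.15 (SD of 3 arrays) in resting ATMKO cells, then 0.56 at 3 h, -1.73 and -1.32 at 6 h, and -3.47 at 24 h. Every stimulated sample was below both resting ones, in the order of time. It fell by 3.46 ± 0.15 (SE) on the log2 scale at 6 h (limma adjusted p = 0.00216), and its second probe gave the same difference of -3.46.

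Ahsp read 1.49 and 2.13 at rest in ATMWT and ATMKO cells, 1.49 at 3 h, -0.60 and 0.24 at 6 h, and -3.16 at 24 h. It lay at the resting ATMWT level at 3 h, 0.65 below its own genotype, and lowest at 24 h. Hba-a1 read 1.37 and 1.96 at rest, 1.46 at 3 h, -0.64 and 0.17 at 6 h, and -1.30 at 24 h. Both fell at 6 h, Ahsp by 1.99 ± 0.12 (SE; limma adjusted p = 0.00245) and Hba-a1 by 1.90 ± 0.12 (adjusted p = 0.00266).

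The other erythroid members fell at 6 h by 1.67 (Alas2) to 2.11 (Klf1), each with a limma adjusted p between 0.0024 and 0.00298. At 3 h Car1 (-1.34) and Klf1 (-1.44) were the members past a difference of -1, and the other 6 were between -0.79 and -0.36. At 24 h all 8 were between -5.37 (Car1) and -3.26 (Hba-a1), where 4.35% of all genes were below -1. The 24 h array shared no slide with resting ATMKO cells. Against the resting ATMWT array of its own slide the median was -3.71 and the range -5.44 to -2.63. Of the 20 other erythroid genes tested, such as those for membrane skeleton and blood groups, 17 fell at 6 h and none rose, with a median of -1.30. Among them Rhd, a blood group antigen gene, was named by rule, for the largest difference in stimulated cells. That difference holds the 6 h and 24 h samples, so large values at these times follow in part from the choice. The same applies to the genes named by rule below. Rhd differed by -2.24 at 6 h (limma adjusted p = 0.00216) and by -6.09 at 24 h, without a test. All 8 members kept their call under each of the 11 alternatives that could be run at 6 h.

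Since these genes moved together, the 250 bases before their starts were read in RefSeq's promoters (GRCm38.p6), which held 4 of the 8 (Hba-a1, Alas2, Klf1 and, for the Hbb-b1 probe, Hbb-bt, the symbol RefSeq pairs with its accession). Motifs were AGATAA, bound by GATA factors, and CACCC, the core of sites for KLF1 and related factors, on either strand; the motifs cannot share a base. CACCC was present in 4 of the 4 windows and in 52% of all 32851 windows, and AGATAA in 1 of 4 (Alas2) and in 9.99% of all. Both were present in Alas2 and in 4.38% of all windows. Among neutrophil members CACCC was in 4 of 7 windows and AGATAA in 2. A match of letters is no measured binding. The windows of Alas2 and Hba-a1 are shown with the motifs of either strand in capitals.
Alas2 (chrX:150547167-150547416, plus strand): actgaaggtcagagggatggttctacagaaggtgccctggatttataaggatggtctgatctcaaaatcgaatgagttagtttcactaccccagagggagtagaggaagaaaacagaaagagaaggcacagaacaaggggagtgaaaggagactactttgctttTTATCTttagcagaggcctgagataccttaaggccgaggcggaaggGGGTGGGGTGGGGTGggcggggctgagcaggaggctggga
Hba-a1 (chr11:32283422-32283671, plus strand): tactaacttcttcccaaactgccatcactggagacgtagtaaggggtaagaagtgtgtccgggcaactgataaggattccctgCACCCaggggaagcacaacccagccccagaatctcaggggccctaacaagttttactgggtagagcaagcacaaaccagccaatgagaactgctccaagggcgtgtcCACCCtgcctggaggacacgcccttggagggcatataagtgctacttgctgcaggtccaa

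Neutrophil markers were near rest at 3 h and lower afterwards. S100a8 and S100a9 form calprotectin, a major protein of the neutrophil cytosol. Camp (cathelicidin), Ltf (lactoferrin), Ngp, Lcn2 (a siderophore binder) and Mmp8 (collagenase) encode proteins stored in granules. The probes of S100a8 and Ltf show what was measured for the cytosolic and the granule proteins.
S100a8 (A_51_P256827, mm9 chr3:90473778-90473837, plus strand): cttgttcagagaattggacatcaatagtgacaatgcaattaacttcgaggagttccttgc
Ltf (A_52_P15388, mm9 chr9:110942873-110942932, plus strand): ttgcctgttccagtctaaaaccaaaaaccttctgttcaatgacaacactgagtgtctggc

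S100a8 read 1.51 in resting ATMWT and 1.70 ± 0.08 (SD of 3 arrays) in resting ATMKO cells, 1.64 at 3 h, 0.70 in both genotypes at 6 h, and 0.54 at 24 h. The 3 h sample lay among the resting ones and the later samples below them. At 6 h S100a8 fell by 0.91 ± 0.12 (SE; limma adjusted p = 0.00775). Ltf read 1.06 and 1.33 at rest, 1.57 at 3 h, 0.44 and 0.45 at 6 h, and -0.07 at 24 h. It was highest at 3 h and fell by 0.75 ± 0.13 at 6 h (adjusted p = 0.0134).

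The class median was -0.02 at 3 h, with genes between -0.07 and 0.58, and no neutrophil gene passed -1 or 1. At 24 h it was -1.40, with 5 of 7 genes below -1 and Camp lowest (-2.13). Mmp8 was the exception. It read 0.58 and 0.82 at rest, 1.05 at 3 h, -0.02 and 0.01 at 6 h and 1.64 at 24 h, so the 24 h sample was the highest of all while the 6 h samples were the lowest. Against resting ATMWT cells on its own slide the 24 h sample was above by 1.06 for Mmp8 and below for the other 6. Of 20 other neutrophil genes 11 fell at 6 h and none rose. Chil3, a chitinase-like protein gene named by rule, fell by 1.42 (limma adjusted p = 0.00409) and was the lowest of these 20 at 24 h (-2.76). At 24 h their median was -0.33 and 8 of 20 were above rest, up to 1.56 for Stfa1, beside the members' median of -1.40. Under median centring none of the 7 members was called at 6 h and Lcn2 turned to 0.05, and with the deposited log ratios S100a8 alone was called, at -0.87.

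Macrophage markers split. Lyz1 and Lyz2 encode lysozymes, Csf1r the receptor for macrophage growth factors, Adgre1 an adhesion receptor used as a macrophage surface marker, Cd68 a lysosomal glycoprotein, Mrc1 the mannose receptor, C1qa and C1qb chains of complement C1q, and Vcam1 an adhesion molecule carried by red pulp macrophages and stroma. Lysozyme and C1q probes stand here for the groups that parted at 24 h.
Lyz2 (A_51_P321150, mm9 chr10:116719175-116719234, minus strand): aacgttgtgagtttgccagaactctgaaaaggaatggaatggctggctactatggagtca
C1qa (A_51_P181451, mm9 chr4:136452409-136452468, minus strand): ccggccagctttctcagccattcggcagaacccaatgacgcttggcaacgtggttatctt
C1qb (A_51_P351860, mm9 chr4:136436578-136436637, minus strand): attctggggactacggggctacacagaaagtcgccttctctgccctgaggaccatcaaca

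Lyz2 read 1.06 and 1.31 at rest in ATMWT and ATMKO cells, 0.85 at 3 h, -0.24 and -0.15 at 6 h, and 1.52 at 24 h. C1qa read 1.95 and 0.89 at rest, -0.01 at 3 h, -0.82 and -1.16 at 6 h, and 0.28 at 24 h. Both were lowest at 6 h, but at 24 h Lyz2 stood above the mean of both resting samples, within the range of the resting ATMKO arrays (1.1 to 1.55), and C1qa below both. At 6 h Lyz2 fell by 1.38 ± 0.12 (SE; limma adjusted p = 0.00336) and C1qa fell by 2.41 ± 0.20 (adjusted p = 0.00318).

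Vcam1 read 2.64 and 1.79 at rest, 0.81 at 3 h, -0.83 and -1.11 at 6 h, and -2.21 at 24 h. It went lower at each time and fell by 3.19 ± 0.17 at 6 h (limma adjusted p = 0.00231). Its second probe differed by only -0.44 at 6 h. Adgre1 read 0.10 and 0.03 at rest, -0.57 at 3 h, 0.18 and 0.07 at 6 h, and 2.24 at 24 h. It stayed near rest at 6 h (0.06 ± 0.11, adjusted p = 0.722), and its second probe gave 2.25 at 24 h beside 2.21 for the first.

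At 24 h 5 of the 9 members were above rest (Adgre1 2.21, Csf1r 0.74, Lyz1 0.50, Cd68 0.35 and Lyz2 0.21) and 4 below (Vcam1 -4, Mrc1 -1.70, C1qa -0.61 and C1qb -0.53). Against resting ATMWT cells of the same slide the same division held, with a median of 0.46. At 24 h 3.84% of all genes were above 1, and Adgre1 and the T cell kinase gene Lck were the 2 members there. Markers of other cells were high at 24 h too, and those named here were chosen after their values were seen: the platelet genes Pf4 (2.10) and Ppbp (1.39) and the stromal genes Pdgfrb (2.30) and Sparc (1.80). Over their lists the 24 h median was 0.18 for 10 platelet genes, 6 of them above rest, and -0.28 for 12 stromal and endothelial genes, 4 of them above. Their part in the macrophage values was not tested. The brightest of 3 Csf1r probes gave 0.74, and the others 0.22 and 0.16. Of 18 other macrophage genes tested at 6 h, 8 fell and none rose. Among them was Fcna, the gene of a ficolin, named by rule. It read 2.09 and 0.92 at rest, fell by 2.43 at 6 h (limma adjusted p = 0.00302) and was the lowest of 20 other macrophage genes at 24 h (-2.20 against rest). Those 20 had a median of -0.01 at 24 h, 10 below and 10 above rest, with Marco (2.48) and Msr1 (2.35), scavenger receptor genes chosen after their values were seen, the highest.

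NK markers comprise Gzma and Prf1, which encode a granule protease and perforin, Nkg7, a protein of cytotoxic granules, Klrd1, the CD94 chain of NK receptors, and Ncr1, the NKp46 receptor. Gzma read 1.71 and 1.90 at rest in ATMWT and ATMKO cells, 1.27 at 3 h, 0.37 and 0.40 at 6 h, and -1.31 at 24 h. Ncr1 read 1.78 and 1.00 at rest, 0.52 at 3 h, -0.28 and -0.24 at 6 h, and -0.80 at 24 h. In both genes each later sample was below the earlier ones and none overlapped the resting samples.

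At 6 h Gzma fell by 1.42 ± 0.12 (SE; limma adjusted p = 0.00324), Nkg7 by 2.06 ± 0.11 (adjusted p = 0.0024) and Ncr1 by 1.65 ± 0.22 (adjusted p = 0.00759), while Prf1 (-0.91) and Klrd1 (-0.60) fell least. Klrd1 was lowest at 3 h (-0.12) and higher again at 6 h (0.98 and 0.85). The class median was -0.63 at 3 h, -1.23 at 6 h and -1.80 at 24 h in ATMKO cells. The ATMWT sample gave -1.34. The 17 other NK genes did not share the 3 h value: their median was 0.15 at 3 h, with 11 above rest and Gzmb (1.13), a granzyme gene, and Klre1 (1.11) highest, and -1.14 at 24 h, with 15 below. Of 16 other NK genes 8 fell at 6 h, and Klra8, the Ly49H receptor gene named by rule, fell by 1.42 (adjusted p = 0.00316).

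T cell markers were measured in samples of mice whose label gives a CD3 epsilon deletion. Cd3d, Cd3g and Cd3e encode chains of the CD3 complex, Lck the kinase at its base and Thy1 a surface glycoprotein of T cells. The Cd3d probe is shown since its 60 bases span 232 in the genome, so that it reads spliced RNA.
Cd3d (A_51_P285206, mm9 chr9:44794171-44794402, plus strand): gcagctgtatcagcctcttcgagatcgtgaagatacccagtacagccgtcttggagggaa

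Cd3d read 1.35 and 1.07 at rest in ATMWT and ATMKO cells, 1.17 at 3 h, 0.36 and 0.24 at 6 h, and 0.34 at 24 h. Thy1 read 1.40 and 1.51 at rest, 0.32 at 3 h, -0.03 and 0.22 at 6 h, and 0.43 at 24 h. Thy1 was thus low from 3 h on, and Cd3d from 6 h on. At 6 h Thy1 fell by 1.36 ± 0.12 (SE; limma adjusted p = 0.0034), Cd3e by 1.08 ± 0.11 (adjusted p = 0.00477), Cd3d by 0.91 ± 0.12 (adjusted p = 0.0074) and Cd3g by 0.87 ± 0.11 (adjusted p = 0.00747). Lck read 0.19 and 0.11 at rest, -0.55 at 3 h, 0.18 and -0.01 at 6 h, and 1.23 at 24 h. It was level with rest at 6 h (-0.06, adjusted p = 0.716) and highest at 24 h. Of 18 other T cell genes 8 fell at 6 h and none rose, among them Lat, a signalling adaptor gene named by rule, by 1.22 (adjusted p = 0.00531).

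Markers of further cells were read in the same fit at 6 h. Of 9 platelet genes 1 fell, with a median of -0.14. Of 9 dendritic cell genes 6 fell and 1 rose (median -0.90), of 7 mast cell, basophil and eosinophil genes 3 fell and 1 rose (-0.39), and of 11 stromal and endothelial genes 8 fell (-0.65). Stab2, a scavenger receptor gene of endothelium named by rule, fell by 2.26 ± 0.22 (SE; limma adjusted p = 0.00437). B cell markers were back near rest at 24 h, with a median of -0.25 in ATMKO cells. The members had medians of -3.99 (erythroid), -1.80 (NK), -1.40 (neutrophil), -0.84 (T cell) and 0.21 (macrophage). For the other markers of these classes the 24 h medians were -2.16, -1.14, -0.33, -0.29 and -0.01 in the same order. Differences between classes were not tested.

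Counted without a test, 6 of the 34 members were below -1 at 3 h (7.27% of all 22194 genes), 23 at 6 h (5.72%) and 20 at 24 h (4.35%) in ATMKO cells. The ATMWT sample had 20 such members (5.62%). None was above 1 at 3 h or 6 h, where 2.1% and 3.34% of genes were in ATMKO cells and 3.51% in ATMWT cells. The 3 times share the same resting arrays.

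**Figure D3:**
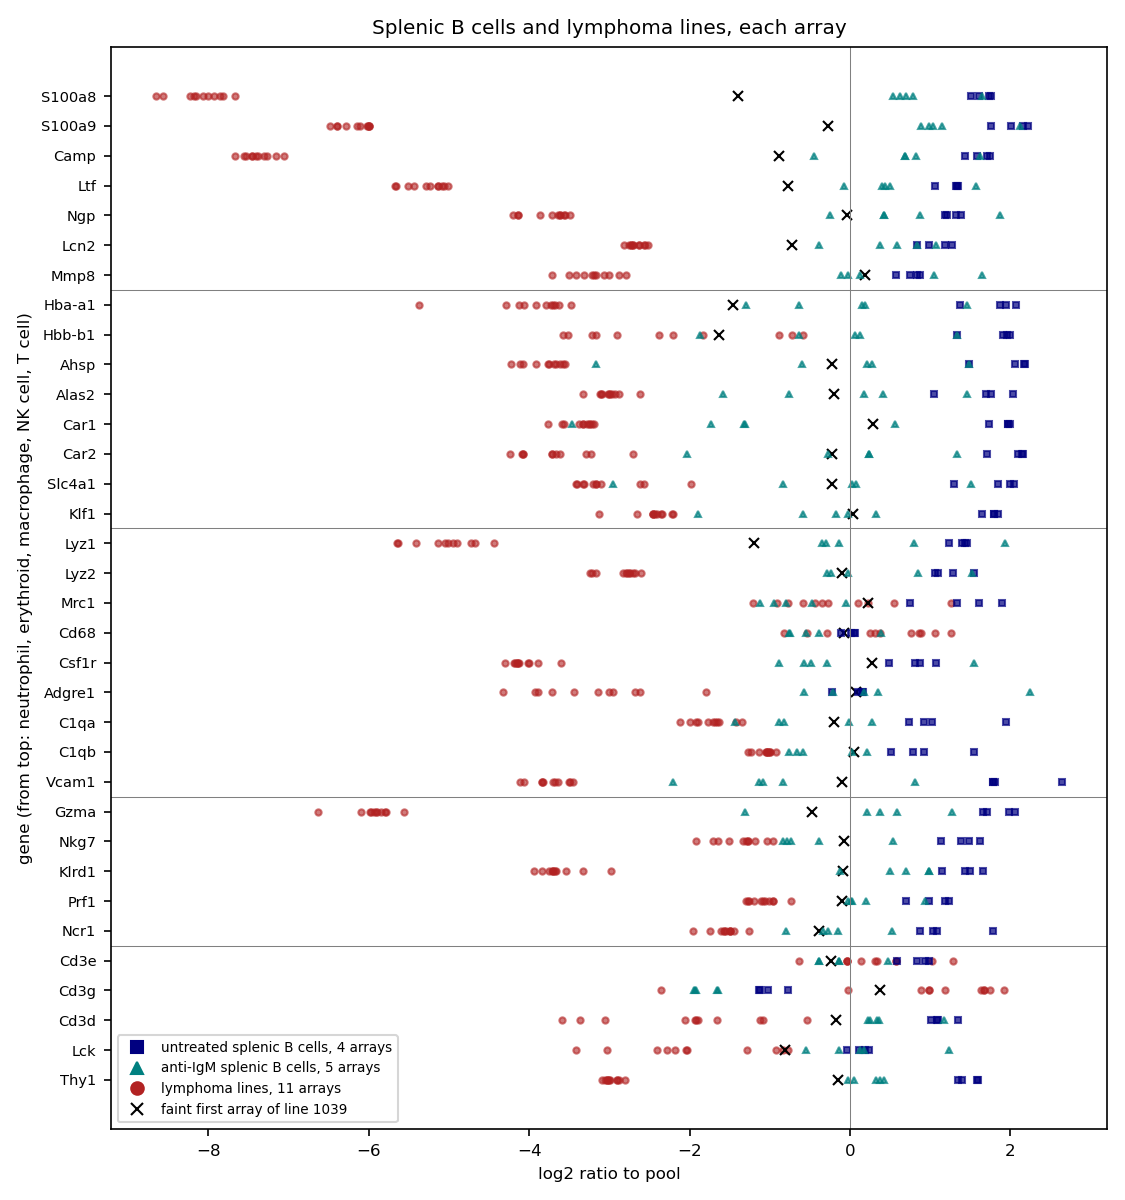
Log2 ratio to the pool (x axis) of each marker (y axis) on 4 arrays of untreated and 5 arrays of anti-IgM-treated splenic B cells and on 12 arrays of lymphoma lines, 1 of them the faint first array of line 1039 (cross). S100a8 lies between -8.65 and -7.67 on the 11 other lymphoma arrays and at -1.40 on the faint one.

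The lymphoma lines were B-lineage cells kept as lines, and their ratios were measured on arrays that also held the pool. Against resting cells 31 of the 34 markers were lower in the 9 lines, where 21.2% of 21363 genes were lower and 14.7% higher, 35.9% in all (limma, 16 samples, 12 residual degrees of freedom, adjusted p below 0.05). The exceptions were Cd68, Cd3e and Cd3g, which did not pass the test. The median was -4.16 over the members and -0.01 over all genes, and by class it was -6.19 for neutrophil, -4.77 for erythroid, -3.16 for macrophage, -2.88 for NK and -2.11 for T cell members. Against stimulated cells 30 were lower and Cd3g higher, where 24.9% and 21.2% of genes were (46.1% in all), and Mrc1, Cd68 and Cd3e did not pass. Both comparisons use the same lines, and their values are given side by side: the median against stimulated cells was -5.59, -2.48, -2.70, -1.31 and -2.17 in the same order of classes. Both counts hold C1qa, Vcam1 and Klrd1, which were above background on 0 of 12 lymphoma arrays. The NK median against rest is the value of Ncr1, above background on 3 of 12. The macrophage median against stimulated cells is the value of Vcam1. These 2 medians thus rest on ratios at or near background. Without the faint array the counts were 31 and 30 as before. A stricter filter needed the sample dye above background on at least 1 array of every sample. It left 24 members, of which 21 were lower against rest and 21 against stimulated cells. Of the 16106 genes it left, 3025 and 3581 were lower.

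S100a8 read -8.65 to -7.67 over the lines without the faint array, with a median of -8.15, against 1.51 and 1.70 in resting cells. Thy1 read -3.09 to -2.80 there, with a median of -3. All lines lay far below all splenic samples for both genes. With the faint array, at -1.40 for S100a8, the mean of line 1039 was -5.02, and the difference from rest was -9.28 ± 0.62 (SE; limma adjusted p = 3.14e-07) for S100a8 and -4.27 ± 0.29 (adjusted p = 3.14e-07) for Thy1. C1qa, Vcam1 and Klrd1 were not well above background on any of 12 lymphoma arrays, so their fold is a bound: the signal was at least 8.2-fold, 43.9-fold and 22.3-fold higher in resting cells, and at least 2.2-fold, 5.42-fold and 12.8-fold higher in stimulated cells. Each bound sets the mean of the splenic samples against the lowest signal above background on the lymphoma arrays, or the probe's own where higher. C1qa, Vcam1 and Klrd1 entered the fit only through the pool dye and other samples. Their lymphoma values in that fit lie at background, so no p-value is given for them. The Vcam1 bound holds for its brightest probe, which differed by -5.75 from rest, while the other probe differed by -0.97. Mmp8 was above background on 5 of the 12 arrays and Ncr1 on 3.

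The CD3 genes differed among the lines. Cd3g ranged from -2.36 in line 1007 to 1.92 in line 1004, with a median of 0.98, while resting cells read -0.77 and -1.09 and stimulated cells -1.94 to -1.64. In 8 of 9 lines Cd3g was above every splenic sample, and line 1007 was below them all. The difference was 2.53 ± 0.59 (SE) against stimulated cells (limma adjusted p = 0.00281) and 1.67 ± 0.77 against rest (adjusted p = 0.106). Without line 1007 the difference from rest was 2.05 (limma adjusted p = 0.000944). Cd3d went the other way, from -3.59 (line 1007) to -0.54 (line 1019), below every splenic sample, with a difference from rest of -3.18 ± 0.59 (adjusted p = 0.000742). Cd3e ranged from -0.64 (line 1007) to 1.15 (line 1010) and overlapped the splenic samples. Its difference from rest was -0.68 ± 0.34 (limma adjusted p = 0.13), and -0.8 without line 1010 (adjusted p = 0.0372). Line 1007 thus had the lowest value of all 3 genes, and Lck was lowest in line 1036 (-3.42).

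Hbb-b1 and Cd68 varied between lines too. Hbb-b1 ranged from -3.55 to -0.65. The arrays of lines 1001 (-0.72 and -0.58), 1019 (-0.88) and 1007 (-1.83) and the faint array (-1.63) were above the 24 h sample of splenic cells (-1.87), and the others below it. Its probe names Hbb-b1 on the array but carries the accession that RefSeq pairs with Hbb-bt, and adult beta globin genes are near-identical copies, so which of them it reports is uncertain. The same holds for the alpha globin copies. Cd68 ranged from -0.82 (line 1036) to 1.26 (line 1019), on both sides of the resting cells at -0.11 and 0.04. Against stimulated cells its difference was 0.70 ± 0.36 (limma adjusted p = 0.127), and 0.85 without line 1036 (adjusted p = 0.0439).

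On 2 intact GC arrays 33 of 34 members were below resting cells and Lck was level (0.13, beside 0.19 and 0.11). The share of all genes below rest was not worked out for GC cells, so the count does not say how unusual the members were. S100a8 read -7.70, Gzma -5.42, Hba-a1 -4.14, Vcam1 -3.31 and Cd3d -4.14. Mmp8, Mrc1 and Ncr1 were above background on 0 of 3 GC arrays. Their signal was at least 12.5-fold, 6.72-fold and 9.04-fold higher in resting cells. For these bounds the floor was averaged over all 3 GC arrays, the faint first array included. All GC values are of 1 sample as far as the series tells, since its 3 GC arrays mix 1 biological and 2 technical repeats, with no test.

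**Figure D4:**
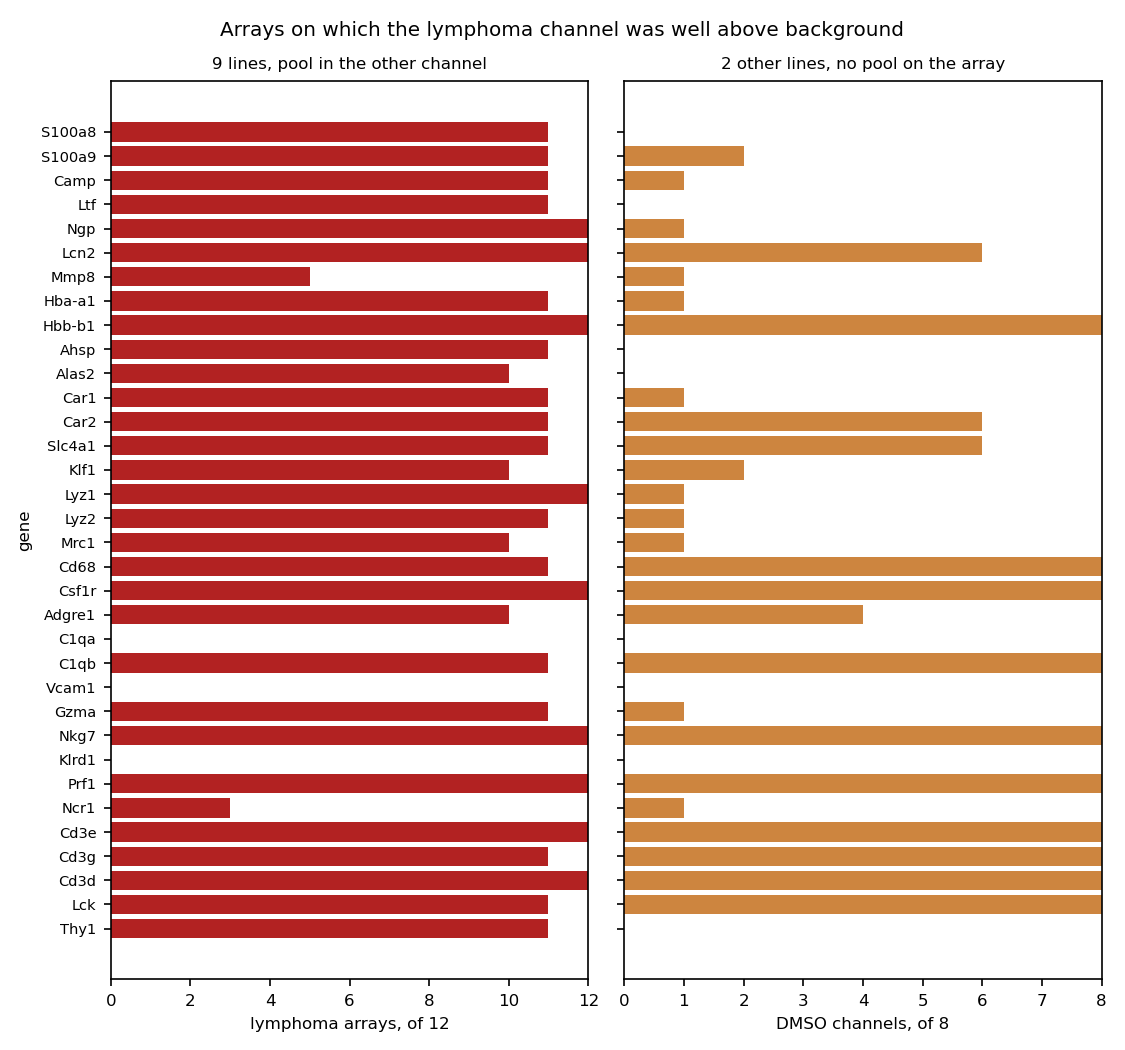
Number of arrays (x axes, bars) on which the lymphoma channel was well above background for each marker (y axis): left, 12 arrays of 9 lines hybridised together with the pool; right, the DMSO channel of 8 arrays of lines 178119 and 28545, on which no pool RNA was present. S100a8, Ltf and Ahsp reach 11 of 12 on the left and 0 of 8 on the right, while the CD3 genes and Lck reach at least 11 and 8. The lymphoma RNA was in Cy5 on the left and in Cy3 on the right.

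Detection of markers in lymphoma RNA differed between the 2 kinds of array. At least 11 of 12 lymphoma arrays were above background for 25 of the 34 members, yet 11 of these 25 were so in at most 1 of the 8 DMSO channels of the other 2 lines. Over all 35019 genes 16847 met the first count and 242 (0.691%) met both. The 11 include S100a8, Camp, Ltf, Hba-a1, Ahsp, Lyz1, Lyz2, Gzma and Thy1. In the Cy3 channel of the same lymphoma arrays the pool was above background for each of the 34 members on at least 11 of 12 arrays. The part that the pool signal has in the lymphoma channel was not tested, so the ratios of these 11 members on lymphoma arrays, S100a8 and Thy1 among them, need not be the level of the lines. The lines on both kinds of array differ, and so does the dye: lymphoma RNA was in Cy5 beside the pool, and DMSO RNA in Cy3. Dye, lines and kind of array cannot be told apart here. For 10 members (Hbb-b1, Cd68, Csf1r, C1qb, Nkg7, Prf1, Cd3e, Cd3g, Cd3d and Lck) the DMSO channel was above background on all 8 drug arrays, as it was for 45.3% of all genes. By class these were 4 of 5 T cell, 2 of 5 NK, 3 of 9 macrophage, 1 of 8 erythroid and 0 of 7 neutrophil genes. At 24 h the array of line 28545 had 85.5% of its spots above background in the PCI-32765 channel. Without it Ngp, Mmp8, Hba-a1, Lyz1, Lyz2, Gzma and Ncr1, each detected on 1 of 8 with it, were at 0 of 7 DMSO channels. The PCI-32765 channel of these 7 arrays has the dye of the lymphoma arrays, Cy5. There Hba-a1 and Car1 were above background on 4 of 7 and Camp on 2 of 7. S100a8, Ltf, Ngp, Ahsp, Lyz1, Lyz2, Gzma and Thy1 were at 0 of 7 in that channel.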

How the data were processed

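Spot intensities (mean signal and local background median of both dyes) were deposited by the authors as scanner output of Agilent Feature Extraction, version 10.1.1.1 per the file headers and 9.1 per the submitters' processing notes. Log10 ratios of Cy5 over Cy3 were deposited too, background-subtracted and dye-normalised per the file headers, and matched the deposited series values within 5e-04.

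From the intensities, background was corrected (normexp, offset 50), arrays were loess-normalised, and spots of a probe and technical repeats of a sample were averaged, which gave log2 ratios for 16 pool samples. The authors' log10 ratios, turned to log2, served as an alternative. The brightest probe over the pool arrays stood for a gene. A gene entered a fit if its probe was well above background, in one or the other dye, on a share of 0.5 or more of the arrays, and was tested with limma 3.58.1 in R 4.3.3 (lmFit, eBayes, Benjamini-Hochberg over all genes tested, threshold 0.05), and all 34 members passed this filter. Genotype was a term in the 6 h fit and in the fit of all stimulated against resting cells. The lymphoma fits had no genotype term, though their splenic samples were of both genotypes. Fits were tested on simulated data with 100 genes changed by 1 and 100 changed by 3 on the log2 scale. Stimulated against rest recovered 0 and 75 of them, 6 h against rest 2 and 98, and lymphoma against rest 49 and 95. The 200 changed genes were far fewer than those called in the real data at 6 h or in lymphoma lines. Each also moved alike in all samples of the changed group. These rates are therefore not the rates of the fits on the real data. Unchanged genes called were 5, 0 and 8 in the same order of fits.

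The members and lists were chosen with earlier results of these data known. Beside the members, genes were named from the lists of further neutrophil, erythroid, macrophage, NK, T cell and stromal markers. From each list the gene with the largest difference in stimulated cells was taken. The 6 h and 24 h samples enter that difference, so the values of these genes at those times are no independent result. Cd79a, Cd22 and the further genes given at 3 h or 24 h were chosen apart from that rule. Alternatives were other background corrections, scalings, filters, probe rules, blocks and left-out samples. The number of arrays limits the precision.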

Additional observations from a re-analysis of the deposited data

Results flagged for a closer look

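In 18 of the 34 members line 1039 lay above the other lines by a gap that exceeded Dixon's critical value for 9 samples. Its mean log2 ratio to the pool was -5.02 for S100a8, -3.33 for S100a9, -4.14 for Camp, -3.22 for Ltf, -2.09 for Ngp, -1.74 for Lcn2 and -1.76 for Mmp8. Among erythroid genes it was -2.23 for Ahsp, -1.76 for Alas2, -1.74 for Car1 and -1.55 for Klf1. Among macrophage genes it was -3.42 for Lyz1, -1.66 for Lyz2, -1.94 for Csf1r and -1.97 for Vcam1, and it was -3.23 for Gzma, -1.81 for Klrd1 and -1.59 for Thy1. This line's mean holds the faint array, which read -1.40 for S100a8 where the line's other array read -8.65. Without the faint array that value was the lowest of the lines for S100a8. No share over all genes was worked out for the count of 18.

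Cd3g was lowest in line 1007, at -2.36, where the next line read -0.02. Chance marks about 1 in 20 such groups.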

How the results depend on the processing

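In stimulated against resting cells, 0 members were called by limma; with slide as a block 22 were (3332 genes in all), with the spread from all 16 samples, added after seeing the data, 6 (143 genes), and with each array on its own and the sample as a random block 0 (8 genes). Leaving out each sample gave 0 to 0 members. At 6 h, where 32 members and 6367 genes were called, the deposited log ratios gave 21 members and 2895 genes, the first repeat alone 3365 genes, and each array with the sample as a random block 9855 genes. Slide as a block could not be fitted at 6 h, since the ATMWT arrays share no slide with the ATMKO arrays of that comparison. Genotype and slide cannot be told apart there. Leaving out samples could not be fitted either, with 1 residual degree of freedom. Directions reversed for Lck in stimulated cells (-0.14 with slide as a block, and -0.23 to 0.28 when each sample was left out, with -0.02 without the ATMKO untreated sample, -0.23 without ATMKO 24 h), for Mmp8 (-0.61 to 0.08, with 0.08 without the ATMWT untreated sample, 0.08 without ATMWT 6 h, 0.04 without ATMKO 6 h), for Adgre1 (-0.12 to 0.68, with -0.12 without ATMKO 24 h, and 0 at 6 h without the first resting ATMKO array), and at 6 h under median centring for Lcn2 (0.05) and Lck (0.46). None of these values passed the test, and the cause was not tested.

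Lymphoma lines against rest gave 29 to 32 members lower, 0 to 1 higher and 4536 to 8548 genes when each sample was left out. The ATMKO untreated (4536) and ATMWT untreated (4576) samples moved the count of genes beyond 1.5 times. Slide as a block gave 1 member higher. Without line 1007 Cd3g was the member higher than at rest, without line 1010 Cd3e was called lower than at rest, and without line 1036 Cd68 was called higher than in stimulated cells. Against stimulated cells the ranges were 28 to 30 lower, 1 to 2 higher and 8558 to 9855 genes.

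The repeat numbers mark technical repeats and pair no samples (deviations of the first ATMKO untreated and 6 h arrays correlated at 0.286). A replicate block over the numbered arrays, which leaves ATMKO 6 h against rest, called 32 members and 9505 genes in the splenic comparisons (Lck -0.11). In lymphoma lines it called 1 member higher against rest, and 18 lower and 2 higher against stimulated cells.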
